A study of Mus musculus with 8 samples.

Results

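Adenylate kinases and the related kinases of nucleoside mono- and diphosphates were examined as a group of 8 mouse genes, Ak1, Ak3, Ak4, Guk1, Nme1, Nme2, Cmpk1 and Dtymk. The genes were chosen by symbol, with the log2 values and contrasts of these same arrays already known. Their levels and changes are therefore given as descriptions. Intervals and counts of test calls are printed for them, and no conclusion is drawn from those calls. A RefSeq transcript of the array table mapped to 7 of the 8 genes. These 7 genes had 9 rows with 8 distinct sets of values, out of 15649 named genes and 18172 distinct sets of values in all. The expression of Nme2 was not analysed here.

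The arrays compare mouse fibroblast lines that differ in p53 and in their pattern of self-renewal, with 1 RNA preparation on each of 8 Affymetrix whole genome arrays. The shared background is a p53-null fetal fibroblast. In the ASYM state (n = 3), Ind-8 cells express a wild-type mouse p53 cDNA from a modified human metallothionein promoter that zinc switches on, and a dividing cell gives 1 cycling and 1 arrested daughter. In the SYM state (n = 3), p53-null Con-3 cells divide into equivalent cycling daughters; the methods describe Con-3 as a line with the empty vector, while the labels call it the parent of Ind-8. In the p53SYM state (n = 2), tI-3 cells, made from Ind-8, add a constitutive cDNA of IMPDH II, the enzyme that limits guanine ribonucleotide synthesis, and divide symmetrically although p53 is induced. Every culture had 65 µM ZnCl2 for 48 h and puromycin at 5 µg/ml, and cultures were kept only with 1.8 to 2.2 population division cycles. The tI-3 medium alone also held G418, at a concentration whose unit differs between the labels and the methods. Each state is 1 cloned line, so the state, the line and, for p53SYM, the added drug cannot be told apart.

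Nucleoside monophosphate kinases pass a phosphate from ATP to AMP, GMP, CMP, UMP or dTMP, and the nucleoside diphosphate kinases of the Nme family carry the products on to triphosphates. Adenylate kinases also interconvert ATP, ADP and AMP, and so link the adenylate pools of the cytosol and the mitochondrion. Guanylate kinase acts just downstream of the GMP that IMPDH activity feeds, and thymidylate kinase supplies a precursor that only DNA synthesis uses.

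Array values are RMA signals on the log2 scale, where 1 unit is a doubling, and levels of different probe sets are not comparable with each other. Pearson's r across probe sets ranged from 0.994 to 0.996 between arrays of the same state (7 pairs) and from 0.978 to 0.988 between states (21 pairs). SYM replicate 3 stood apart on the 3 control probe sets for 18S rRNA, which averaged 10.6 there and 5.58 to 6.46 on the other 7 arrays. The 14 hybridization-control probe sets, which report RNA added at the bench, averaged 8.98 to 9.16 on the ASYM arrays and SYM replicates 1 and 2, and 9.62, 9.43 and 9.71 on SYM replicate 3 and the p53SYM arrays. The higher level therefore coincides with the p53SYM state except for 1 SYM array, and no level holds both ASYM and p53SYM arrays. Values without SYM replicate 3 are given below for Ak1, Ak4, Dtymk and some of the other kinases. The lists of neighbouring steps, of cell division and of markers are given with all arrays only.

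**Figure D1:**
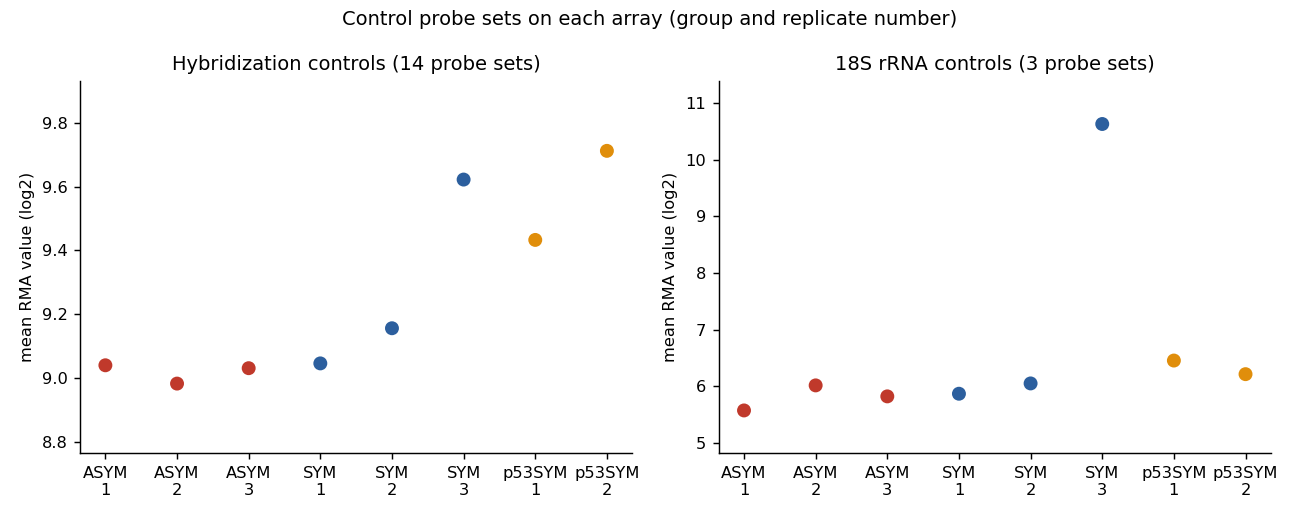
Mean log2 value of the hybridization-control probe sets (left) and of the 18S rRNA control probe sets (right) on each array, with 1 point per array. SYM replicate 3 lies at 10.6 for 18S rRNA, and at 9.62 for the hybridization controls it sits with the p53SYM arrays at 9.43 and 9.71.

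The labels were checked first. Cdkn1a, the p53-activated inhibitor of cyclin-dependent kinases, measured 9.70, 9.70 and 9.59 in ASYM, 5.73, 5.81 and 6.03 in SYM, and 7.55 and 7.33 in p53SYM. Mdm2, the ubiquitin ligase that p53 induces against itself, measured 10.79, 11.19 and 10.71 in ASYM, 9.02, 8.79 and 8.87 in SYM, and 9.67 and 9.56 in p53SYM. For both genes the states did not overlap and p53SYM lay between SYM and ASYM. Trp53 itself was 0.53 higher in ASYM than in SYM (SE 0.09; limma adjusted p = 0.0019) and 0.39 higher in p53SYM than in SYM (adjusted p = 0.014), although whether its probes lie within the p53 transgene is not given in the sources used here. Impdh2 measured 12.34 and 12.38 in p53SYM, below the SYM arrays at 12.51, 12.56 and 12.53 and above the ASYM arrays at 12.16, 12.20 and 12.22; the place of its probes relative to the IMPDH II cDNA is likewise not given, so this value does not settle the label. The zinc-responsive metallothioneins Mt1 and Mt2 lay between 12.94 and 13.95 on all 8 arrays. Fibroblast markers were measured for 8 of 8 genes, with Vim at 13.56 to 14.08, although Thy1 lay among the dimmest 25% of probe sets. Of the 8 markers, limma called 2 higher and 1 lower in ASYM against SYM, 4 higher and 1 lower in ASYM against p53SYM, and 3 higher and 2 lower in p53SYM against SYM, where 21.9%, 31.1% and 25.4% of all probe sets were called. From SYM to p53SYM the largest differences were in Col3a1 (log2 change −2.68, adjusted p = 6.2e-04) and Col1a1 (−1.06, adjusted p = 0.0047). The third collagen, Col1a2, did not differ there by the test (adjusted p = 0.970). Col3a1 was also 2.42 higher in ASYM than in p53SYM (adjusted p = 0.0013), and Col1a1 was 1.49 higher (adjusted p = 9.1e-04). Fn1 was 0.70 higher in ASYM than in SYM (adjusted p = 3.2e-04). Each comparison of lines therefore also holds differences in fibroblast markers, and some markers of other cell types differed too. Kdr was called in all 3 comparisons (0.44 higher in p53SYM than in SYM, adjusted p = 0.013), while the other endothelial markers, Pecam1 and Cdh5, were not called. Nes was lower in ASYM than in SYM (−0.45, adjusted p = 0.018). Tubb3, among the dimmest 25% of probe sets, was lower in p53SYM than in SYM (−0.52, adjusted p = 0.011) and than in ASYM (adjusted p = 0.036). The other neural markers, Nes and Sox2, were not called in those comparisons. From SYM to p53SYM Nes changed by −0.16 and Sox2 by 0.07. ASYM minus p53SYM was 0.39 for Tubb3, −0.29 for Nes and −0.11 for Sox2. The gene with the highest mean in the list of each other cell type was Nes at 6.28 to 7.05, Kdr at 5.76 to 6.69, Des at 5.83 to 6.33, Krt8 at 4.01 to 5.03 and Itgam at 3.37 to 3.95.

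The stretches of DNA just before the starts of 4 of the genes, and of Cdkn1a, are shown because Ak1 was ordered over the states like Cdkn1a, while Ak4, Cmpk1 and 1 probe set of Dtymk lay below SYM in both other lines. They are the 250 bases before the most upstream start of each gene in RefSeq on GRCm38.p6: Ak1 at chr2:32621508-32621757 on the plus strand, Ak4 at chr4:101419039-101419288 on the plus strand, Cmpk1 at chr4:114987229-114987478 on the minus strand, Dtymk at chr1:93801935-93802184 on the minus strand and Cdkn1a at chr17:29090729-29090978 on the plus strand. Capitals mark CACGTG, the E-box that Myc and HIF proteins can bind, or the p53 half-site decamer. Both motifs read the same on either strand.
Ak1: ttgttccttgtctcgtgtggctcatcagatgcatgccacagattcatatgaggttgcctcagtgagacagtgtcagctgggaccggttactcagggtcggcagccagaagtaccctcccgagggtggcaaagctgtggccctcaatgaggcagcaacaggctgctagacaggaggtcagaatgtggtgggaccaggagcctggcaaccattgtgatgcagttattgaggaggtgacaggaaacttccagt
Ak4: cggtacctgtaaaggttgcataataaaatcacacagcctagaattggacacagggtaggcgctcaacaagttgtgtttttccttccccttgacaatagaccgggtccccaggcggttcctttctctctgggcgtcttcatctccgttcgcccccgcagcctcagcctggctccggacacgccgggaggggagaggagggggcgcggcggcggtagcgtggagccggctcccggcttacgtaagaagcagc
Cmpk1: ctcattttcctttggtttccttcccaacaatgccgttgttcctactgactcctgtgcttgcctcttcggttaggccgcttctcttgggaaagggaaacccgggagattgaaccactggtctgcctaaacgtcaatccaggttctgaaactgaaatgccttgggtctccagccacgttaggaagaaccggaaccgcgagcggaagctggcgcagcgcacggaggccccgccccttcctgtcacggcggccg
Dtymk: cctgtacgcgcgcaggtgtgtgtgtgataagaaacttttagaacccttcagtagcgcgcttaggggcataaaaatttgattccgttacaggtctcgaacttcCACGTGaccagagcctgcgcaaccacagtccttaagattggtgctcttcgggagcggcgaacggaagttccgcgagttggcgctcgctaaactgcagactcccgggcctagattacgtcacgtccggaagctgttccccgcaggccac
Cdkn1a: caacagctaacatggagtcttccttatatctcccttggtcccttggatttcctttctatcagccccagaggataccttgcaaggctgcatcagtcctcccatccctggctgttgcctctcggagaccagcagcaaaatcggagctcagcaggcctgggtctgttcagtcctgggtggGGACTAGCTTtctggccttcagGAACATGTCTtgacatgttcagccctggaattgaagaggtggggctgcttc
The table held 17 windows for the 8 genes. CACGTG was found in 3 of the genes: in both windows of Nme1, not shown, beginning 18 and 29 bases before the start, in the window of Dtymk, beginning 148 bases before it, and in 1 of the 4 windows of Ak4, not the one shown, beginning 214 bases before it. Of all 32851 windows of the same length, 6.02% hold this motif. No p53 decamer occurred in the 17 windows, whereas the first window of Cdkn1a holds a pair whose first decamer begins 73 bases before the start; 7.13% of all windows hold 1 or more decamers and 0.064% hold a pair with 0 to 13 bases between. The 4 windows of Ak1 hold 1 to 5 CG dinucleotides, against 22 in Dtymk, 17 in Cmpk1 and 19 in the first window of Ak4. Low counts are not particular to Ak1: the first window of Cdkn1a holds 2, the first of Nme2 1 and the second of Guk1 6. Over all windows the median is 6 and the first quartile 2. A match describes letters in these windows, and its absence says nothing about binding of a factor.

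Ak1, the adenylate kinase of the cytosol, differed most among the states. Its log2 values were 10.62, 10.83 and 10.65 in ASYM, 8.01, 7.95 and 7.90 in SYM, and 9.51 and 9.56 in p53SYM. The states did not overlap on any array: ASYM was highest, p53SYM lay between and SYM was lowest, and each gap exceeded the spread of the replicates, whose SD was 0.11, 0.05 and 0.04 in ASYM, SYM and p53SYM. ASYM exceeded SYM by 2.74 (SE 0.09, 95% interval 2.54 to 2.94), a 6.70-fold difference. p53SYM exceeded SYM by 1.58 (SE 0.10, 95% interval 1.35 to 1.80), or 2.98-fold. ASYM exceeded p53SYM by 1.17 (SE 0.10, 95% interval 0.94 to 1.39), or 2.25-fold. Since these comparisons share arrays, the values are set side by side only; in p53SYM, 57.5% of the log2 difference between SYM and ASYM was present. Of 18172 distinct sets of values, 13 had a higher change than Ak1 in ASYM against SYM, 61 in p53SYM against SYM and 274 in ASYM against p53SYM.

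The Ak1 difference was as large without the array that stood apart. Without SYM replicate 3, ASYM exceeded SYM by 2.72, and with any 1 array left out this value ran from 2.68 to 2.78. Within the higher level of the hybridization controls, the p53SYM arrays exceeded SYM replicate 3 by 1.63. A second quantile normalization gave 1.05 for ASYM over p53SYM and 1.69 for p53SYM over SYM. None of the 4 Ak1 windows of 250 bases described above held the p53 decamer, which 7.13% of all windows hold. Binding of p53 to Ak1 was not tested.

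**Figure D2:**
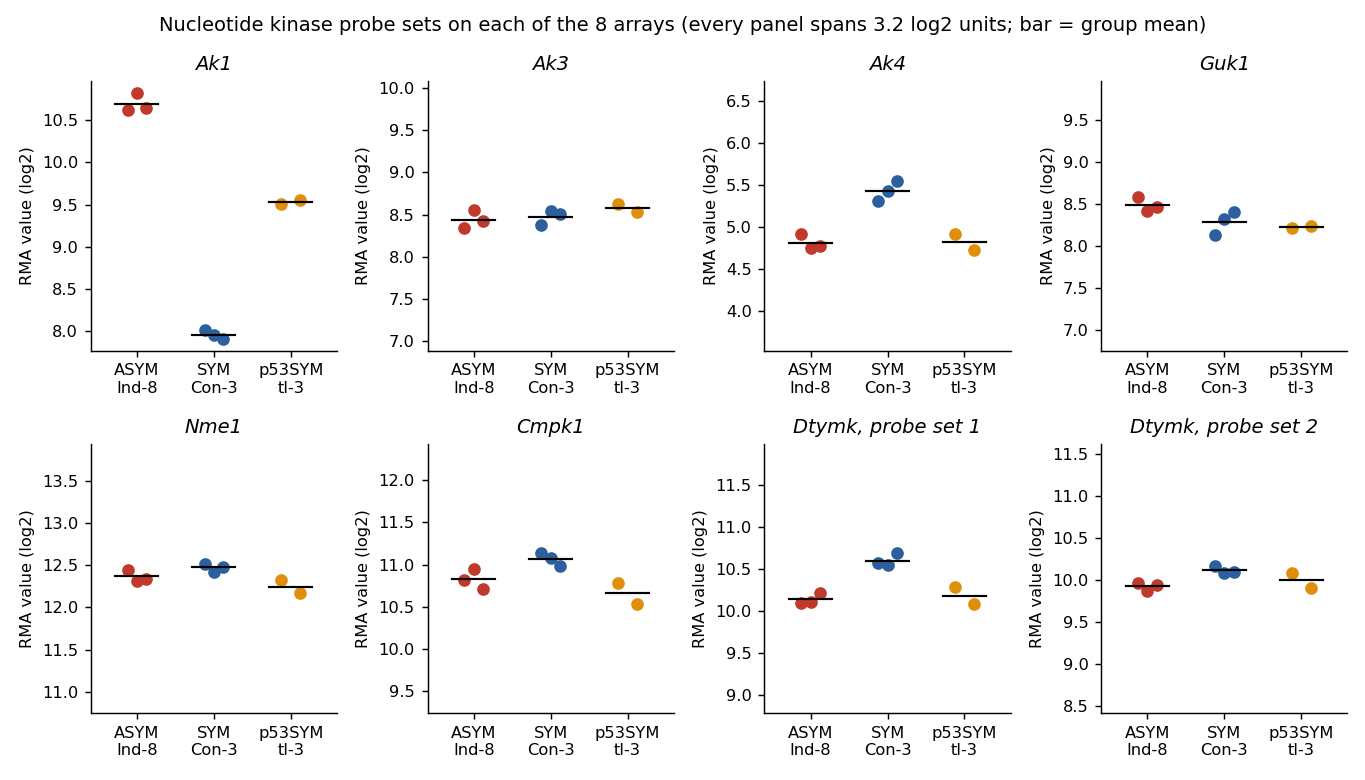
RMA log2 value of each distinct probe set of the 7 measured nucleotide kinases, with 1 point per array and a bar at the mean of each state; every panel spans the same number of log2 units. Ak1 separates the 3 states, from 7.90 to 10.83. In Ak4, Cmpk1 and the first Dtymk probe set every SYM array lies above all others, and genes other than Ak1 vary less than Ak4 does.

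Likeness to Ak1 was ranked by Pearson's r over the 8 arrays among 2372 distinct sets of values of named genes that varied by at least 1 log2 unit. The genes most like Ak1 were Ccng1 (r = 0.995), Dglucy (r = 0.992) and Igf2r (r = 0.991). Ccng1 encodes cyclin G1, a known p53 target, Dglucy encodes D-glutamate cyclase and Igf2r encodes the receptor for insulin-like growth factor 2 and mannose 6-phosphate. Ccng1 measured 11.79, 12.42 and 12.07 in ASYM, 9.14, 9.20 and 9.22 in SYM, and 10.93 and 10.77 in p53SYM. Because the arrays fall into 3 states, r here describes the shared order and spacing of the states and carries no test.

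**Figure D3:**
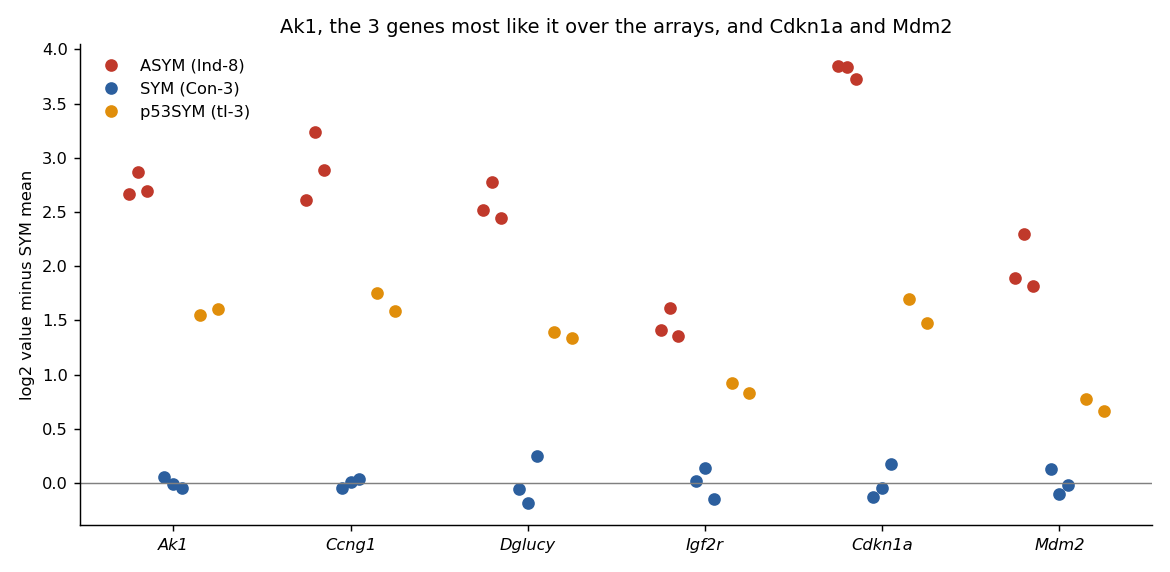
Log2 value on each array minus the SYM mean of the same gene, for Ak1, the 3 genes most like it and the p53-responsive genes Cdkn1a and Mdm2. In all 6 genes the p53SYM arrays lie between the SYM and the ASYM arrays.

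The adenylate kinases of the mitochondrial matrix did not follow Ak1. Ak3, which uses GTP to phosphorylate AMP, measured 8.34, 8.55 and 8.42 in ASYM, 8.38, 8.54 and 8.50 in SYM, and 8.63 and 8.53 in p53SYM. The states overlapped in each comparison, and ASYM minus SYM was −0.04 (SE 0.09, 95% interval −0.24 to 0.17). ASYM minus p53SYM was −0.14 and p53SYM minus SYM 0.11 for Ak3, and a second quantile normalization gave −0.29 and 0.23. Ak4, its close relative in the same compartment and a gene known to respond to hypoxia, measured 4.92, 4.75 and 4.77 in ASYM, 5.30, 5.43 and 5.54 in SYM, and 4.92 and 4.72 in p53SYM. Every ASYM and p53SYM array lay below every SYM array, and the ASYM and p53SYM arrays overlapped. Ak4 was 1.53-fold lower in ASYM than in SYM (log2 change −0.61, SE 0.10, 95% interval −0.84 to −0.39) and 1.52-fold lower in p53SYM than in SYM (95% interval of the log2 change −0.85 to −0.36). Between ASYM and p53SYM the log2 difference was −0.01 (SE 0.11), but a second quantile normalization gave 0.18, and 0.17 came with the block for the hybridization controls.

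The Ak4 signal is weak, with a mean above that of 37.8% of probe sets, where the dimmest 25% lie under 4.30. A row of a model transcript that the gene table does not name holds the same 8 values, so this probe set cannot tell the 2 transcripts apart. Without SYM replicate 3 the log2 change from SYM to ASYM was −0.55, and the p53SYM arrays lay 0.72 below SYM replicate 3 taken alone (difference −0.72). Each of the same 2372 sets of values varied more than that of Ak4 itself. The genes among them most like Ak4 over the 8 arrays were Taf5 (r = 0.986), a subunit of the general transcription factor TFIID, Alyref (r = 0.982), an adaptor of mRNA export, and Mrpl12 (r = 0.981), a protein of the mitochondrial ribosome.

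Guk1, Nme1 and Cmpk1 act on ribonucleotides. Guk1, guanylate kinase, measured 8.58, 8.42 and 8.46 in ASYM, 8.14, 8.33 and 8.41 in SYM, and 8.21 and 8.24 in p53SYM, in 2 rows with identical values. The ASYM arrays lay just above the others, by 0.20 over SYM (SE 0.10, 95% interval −0.02 to 0.41) and by 0.26 over p53SYM (SE 0.11, 95% interval 0.02 to 0.50), and the SYM and p53SYM arrays overlapped. These Guk1 differences depended on the fit: when the arrays were quantile-normalized again, ASYM minus p53SYM was 0.10 and the difference between p53SYM and SYM, −0.06, turned to 0.07. With the block for the hybridization controls ASYM minus p53SYM was 0.44, and without SYM replicate 1 ASYM minus SYM was 0.12. Nme1, nucleoside diphosphate kinase A, measured 12.45, 12.31 and 12.34 in ASYM, 12.52, 12.42 and 12.48 in SYM, and 12.32 and 12.17 in p53SYM. ASYM overlapped both other states, and p53SYM lay below SYM (log2 change −0.23, SE 0.10, 95% interval −0.45 to −0.01). This Nme1 difference was −0.15 without p53SYM replicate 2 and −0.10 when the arrays were quantile-normalized again. A second row, of a model transcript without a name in the gene table, shares the 8 values of Nme1, and whether its probes also match Nme2 was not tested. Cmpk1, the kinase of UMP and CMP, measured 10.82, 10.95 and 10.71 in ASYM, 11.14, 11.08 and 10.98 in SYM, and 10.78 and 10.53 in p53SYM. Both p53-expressing lines lay below SYM and overlapped each other, with a log2 change from SYM of −0.24 in ASYM (SE 0.10, 95% interval −0.47 to −0.01) and of −0.41 in p53SYM (SE 0.11, 95% interval −0.66 to −0.15). The p53SYM value of Cmpk1 was −0.28 without p53SYM replicate 2 and −0.27 when the arrays were quantile-normalized again.

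Dtymk, thymidylate kinase, was lower in both p53-expressing lines by 1 of its 2 probe sets. The brighter probe set measured 10.10, 10.11 and 10.21 in ASYM, 10.56, 10.54 and 10.69 in SYM, and 10.28 and 10.08 in p53SYM. Every SYM array lay above all others, and ASYM and p53SYM overlapped. The log2 change from SYM was −0.46 in ASYM (SE 0.09, 95% interval −0.66 to −0.25), or 1.38-fold lower, and −0.42 in p53SYM (SE 0.10, 95% interval −0.65 to −0.19), or 1.33-fold lower. Without SYM replicate 3 the ASYM change was −0.41, and the p53SYM change was −0.32 both without p53SYM replicate 2 and when the arrays were quantile-normalized again. ASYM minus p53SYM, −0.04, was 0.09 with the block for the hybridization controls and −0.15 when quantile-normalized again. The other probe set measured 9.96, 9.87 and 9.94 in ASYM, 10.17, 10.08 and 10.10 in SYM, and 10.08 and 9.91 in p53SYM. It gave smaller log2 changes, −0.19 in ASYM (95% interval −0.38 to 0.00) and −0.12 in p53SYM (95% interval −0.33 to 0.10), so the probe sets disagree in size. On it every ASYM array lay below every SYM array, and the p53SYM arrays overlapped both. Each of the same 2372 sets of values varied more than those of Dtymk itself. The genes among them most like the brighter probe set were Crabp1 (r = 0.991), which binds retinoic acid, Rpp30 (r = 0.982), a subunit of ribonuclease P, and Peg3 (r = 0.982), an imprinted zinc finger gene.

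**Figure D4:**
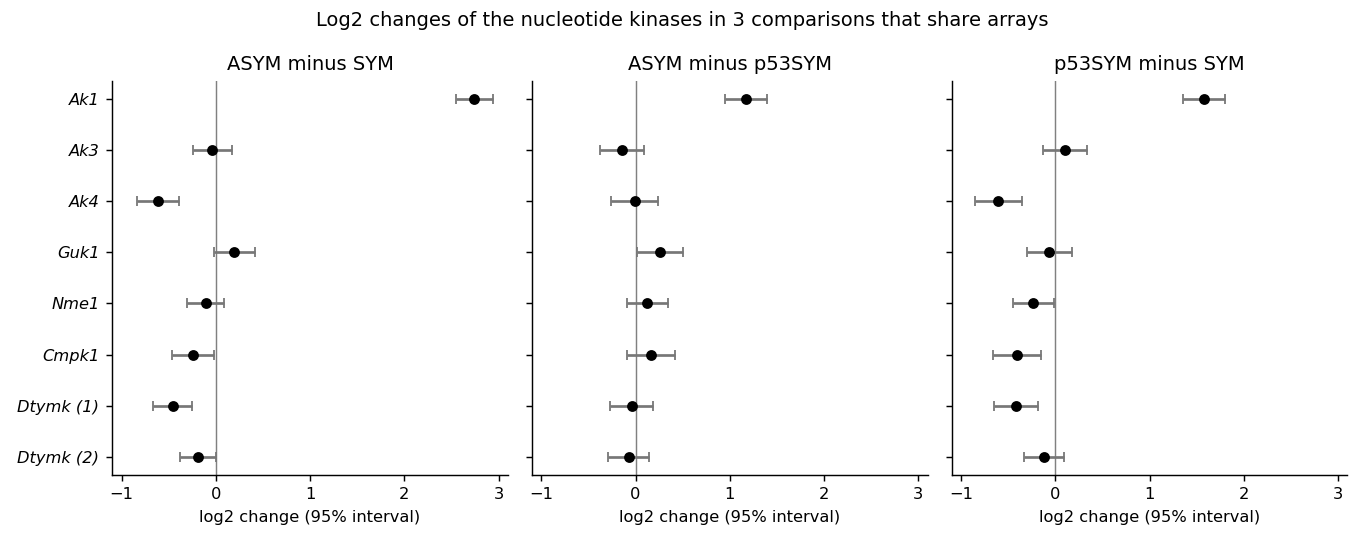
Log2 change of each distinct probe set of the 7 measured nucleotide kinases in the 3 comparisons, with 95% intervals from limma; the comparisons share arrays. Ak1 lies at 2.74, 1.17 and 1.58, Ak4 and the first Dtymk probe set lie below 0 against SYM and near 0 between ASYM and p53SYM, and the intervals of Ak3 include 0 throughout.

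Counts for the 7 genes are given beside those of the whole array, and nothing is read from them because the choice of genes used these contrasts. At a limma adjusted p under 0.05 over 22523 probe sets, 1 of the 7 genes was higher and 2 were lower in ASYM than in SYM, where 21.9% of all probe sets were called, 10.9% higher and 11.0% lower. In ASYM against p53SYM 1 gene was higher and 0 were lower, where 31.1% were called, 15.6% higher and 15.5% lower. In p53SYM against SYM 1 gene was higher and 3 were lower, where 25.4% were called, 10.2% higher and 15.1% lower. The states did not overlap for 5 of the 7 genes in ASYM against SYM (38.0% of all probe sets), for 2 in ASYM against p53SYM (60.3%) and for 5 in p53SYM against SYM (51.6%). The rank product test that the study's methods name called Ak1 alone in each comparison, where it called 3.61%, 2.0% and 2.3% of all probe sets. The median log2 change of the 7 genes was −0.11, 0.12 and −0.23 in the order given, against −0.06, −0.06 and 0.04 over all probe sets.

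Of the other nucleotide and nucleoside kinases, 16 of 21 listed genes were measured. In ASYM against SYM 3 of the 16 rose, 4 fell and 9 did not pass the test, where 10.9% of all probe sets were higher and 11.0% lower. Tk1, the thymidine kinase of the cytosol that peaks in S phase, fell most: it measured 9.96, 9.57 and 9.94 in ASYM, 10.75, 10.67 and 10.63 in SYM, and 10.15 and 10.19 in p53SYM, a log2 change of −0.86 from SYM to ASYM (SE 0.11, adjusted p = 6.2e-04). Every SYM array lay above all Tk1 values of the other lines.

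Of the 6 other measured Nme genes, Nme4 and Nme6 fell in ASYM against SYM and Nme3, Nme5, Nme7 and Nme8 did not pass the test. Nme4, the mitochondrial nucleoside diphosphate kinase, measured 6.15, 6.12 and 6.48 in ASYM, 7.01, 6.93 and 7.08 in SYM, and 6.18 and 6.07 in p53SYM (log2 change from SYM to ASYM −0.76, adjusted p = 0.0011). Nme6 changed by −0.54 (adjusted p = 0.0029). Uck2, a uridine-cytidine kinase, changed by −0.37 (adjusted p = 0.021). The genes that rose from SYM to ASYM were Uckl1, a relative of Uck2, by 0.66 (adjusted p = 0.0044), Adk, adenosine kinase, by 0.40 (adjusted p = 0.0091), and Tk2, the mitochondrial thymidine kinase, by 0.39 (adjusted p = 0.025). The median over the 16 genes was −0.09, against −0.06 over all probe sets.

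Between the p53SYM and SYM lines 2 of the 16 genes rose and 5 fell, where 10.2% of all probe sets were higher and 15.1% lower. Nme4 changed by −0.88 (adjusted p = 6.7e-04), Uck2 by −0.66 (adjusted p = 0.0017) and Tk1 by −0.51 (adjusted p = 0.014). Nme6 changed by −0.44 (adjusted p = 0.012) and Tk2 by −0.38 (adjusted p = 0.040). Uckl1 rose by 0.52 (adjusted p = 0.020), and Ak5, an adenylate kinase best known from brain, rose by 0.42 (adjusted p = 0.025). The median over the 16 genes was −0.01, against 0.04 over all probe sets.

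Between ASYM and p53SYM 3 of the 16 rose and 1 fell, where 15.6% of all probe sets were higher and 15.5% lower. Tk2 was higher in ASYM by 0.78 (SE 0.12, adjusted p = 0.0014), with 7.14, 7.03 and 6.96 in ASYM and 6.40 and 6.13 in p53SYM. Adk was higher by 0.60 (SE 0.10, adjusted p = 0.0020) and Nme7 by 0.34 (SE 0.11, adjusted p = 0.040). The second, dimmer probe set of Nme7 gave −0.14, and its call was lost in several other fits, among them quantile normalization (0.18, adjusted p = 0.228), the fit on the compared states alone (adjusted p = 0.052) and leaving out ASYM replicate 2 (adjusted p = 0.112). Ak5 was lower by 0.64 (log2 change −0.64, SE 0.12, adjusted p = 0.0035). The median over the 16 genes was −0.11, against −0.06 over all probe sets. With the arrays quantile-normalized again the split became 2 higher and 4 lower.

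**Figure D5:**
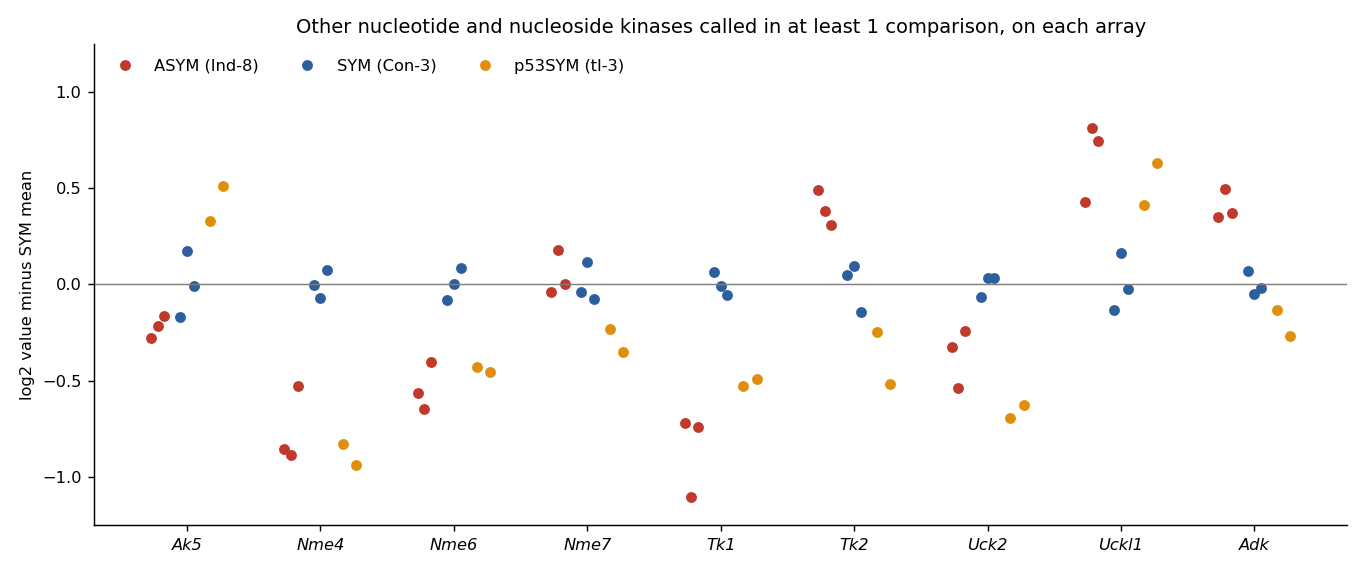
Log2 value on each array minus the SYM mean of the same gene, for 9 other nucleotide and nucleoside kinases called in at least 1 comparison. Nme4, Nme6 and Tk1 lie below the SYM arrays on every array of both p53-expressing lines, while Tk2 and Adk lie above SYM in ASYM and below it in p53SYM.

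Calls that involve the p53SYM arrays rest on few arrays. In a limma fit that blocked on hybridization control level, where SYM replicate 3 alone links the levels, the test called 0 of the 16 genes in ASYM against p53SYM; 3 had an unadjusted p under 0.05, and the rank product test also called 0, with 3 at an unadjusted p under 0.05. The adjusted p was then 0.147 for Tk2, 0.106 for Adk, 0.123 for Ak5 and 0.562 for Nme7. The log2 change was 0.58 for Adk and −0.65 for Ak5 in that fit, close to the 0.60 and −0.64 without the block, while Tk2 went from 0.78 to 0.56 and Nme7 from 0.34 to 0.22. In p53SYM against SYM the block left 3 of the 16, leaving out p53SYM replicate 2 left 2, leaving out SYM replicate 1 left 4, and the rank product test called 0, with 4 at an unadjusted p under 0.05. Under the block the genes that lost their call were Ak5 at 0.43 (0.42 without it), Uckl1 at 0.55 (0.52), Tk1 at −0.45 (−0.51) and Tk2 at −0.24 (−0.38), so that the change stayed about as large except for Tk2. Without p53SYM replicate 2 they were Ak5 (0.33), Uckl1 (0.41), Nme6 (−0.43), Tk1 (−0.53) and Tk2 (−0.25), and without SYM replicate 1 Ak5 (0.34), Uckl1 (0.46) and Tk2 (−0.36). Without p53SYM replicate 1 Tk1 (−0.49, adjusted p = 0.072) and Nme6 (−0.46, adjusted p = 0.050) lost theirs, Nme6 also after a second quantile normalization (−0.33, adjusted p = 0.054), and Ak5 without SYM replicate 3 (0.42, adjusted p = 0.050). Tk2 also lost its call on the compared states alone (adjusted p = 0.063), with a trend in the prior (adjusted p = 0.052), without ASYM replicate 2 (adjusted p = 0.055) and without SYM replicate 2 (adjusted p = 0.120). Nme4 and Uck2 kept their call there in each limma fit that was run. In ASYM against SYM, Tk2 and Uck2 lost theirs without ASYM replicate 2 (adjusted p = 0.065 and 0.079) and without SYM replicate 3 (adjusted p = 0.090 and 0.064), Tk2 also without ASYM replicate 1 (adjusted p = 0.082) and Uck2 also without SYM replicate 2 (adjusted p = 0.071), while the other 5 kept it in each limma fit. In these fits the log2 change was 0.32 to 0.40 for Tk2 (0.39 with all arrays) and −0.35 to −0.28 for Uck2 (−0.37 with all arrays).

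Genes of cell division were set beside Dtymk and Tk1. Of 14 measured proliferation genes, 12 fell and 0 rose in ASYM against SYM, where 11.0% of all probe sets were lower and 10.9% higher. Their median log2 change was −0.52, and among those that fell were Mcm5 (−0.86, adjusted p = 2.5e-04), Ccna2 (−0.71, adjusted p = 5.4e-04) and Top2a (−0.65, adjusted p = 0.0032). In ASYM against p53SYM 7 of the 14 fell and 0 rose, where 15.5% and 15.6% of all probe sets did, with a median of −0.37, while Dtymk measured −0.04 and Tk1 −0.35; Mcm5 (−0.11) and Cdk1 (0.04) were not called there. In p53SYM against SYM 2 of the 14 fell and 0 rose, where 15.1% and 10.2% of all probe sets did, with a median of −0.05, while Dtymk measured −0.42 on its brighter and −0.12 on its other probe set and Tk1 measured −0.51. The 2 that fell were Mcm5 (−0.75, adjusted p = 8.5e-04) and Cdk1 (−0.60, adjusted p = 0.0020). The rank product test called 1 of the 14 lower in ASYM against SYM and 0 in each other comparison. The part of cell cycle state in the values of Dtymk and Tk1 was not tested.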

How the data were processed

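Total RNA of 8 cultures was hybridized to 1 Affymetrix mouse array each. The deposited table holds RMA signals, which the authors had placed on a log2 scale after regrouping the probes by RefSeq transcript. A version of RMA is not given in the sources used here. No further normalization was applied. A gene of the list of other kinases is not reported here. Of 22587 probe sets, 64 Affymetrix controls were left out and 22523 were tested. Names came from a RefSeq gene table of GRCm38.p6, which gave 1 symbol for 18290 (81.2%). A gene with several distinct probe sets is represented by the one with the highest mean. Moderated linear models with a mean per state, over all 8 arrays, were run in limma 3.58.1 (R 4.3.3), with Benjamini-Hochberg adjustment and calls at an adjusted p under 0.05. The rank product test was re-implemented with 100 permutations and a pfp under 0.05. Both were tested on simulated data, and the outcome is not given here. Values were handled in Python 3.11.15 with numpy 2.4.6 and pandas 2.3.3. The members and gene lists were chosen with earlier results of these data known. Named genes are every member, each other nucleotide or nucleoside kinase called in any comparison, at most the 3 called with the largest rise and fall in each other list, label checks and cell type markers, and the 3 genes most like Ak1, Ak4 and Dtymk. The labels and methods call the preparations independent, and the p-values measure only the spread between them. The number of arrays limits the precision. Alternatives were the rank product test, fits on the compared states, a replicate block, a trend in the prior, a filter on dim probe sets, distinct values counted once, 2 other scalings, a block for the hybridization controls, the mean over probe sets of a gene, and each array left out.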

Additional observations from a re-analysis of the deposited data

How the results depend on the processing

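The limma counts in ASYM against SYM, ASYM against p53SYM and p53SYM against SYM were 4942, 7009 and 5715 over all probe sets and 7, 4 and 7 over the 16 other nucleotide and nucleoside kinases. The rank product test gave 813, 450 and 518 over all and 2, 0 and 0 over the kinases. The block for the hybridization controls gave 708 and 0 in ASYM against p53SYM and 3066 and 3 in p53SYM against SYM. With 1 array left out, the counts over all probe sets ran from 3493 to 4637, from 2781 to 7261 and from 3093 to 5625, and over the kinases from 5 to 7, from 3 to 4 and from 2 to 7. The lowest counts of the comparisons with p53SYM over all probe sets came without p53SYM replicate 2, where limma takes the spread of the lone array from the other states. In p53SYM against SYM the kinase count was 2 there and 4 without SYM replicate 1. Every other alternative kept these counts within 1.5 times. The replicate block gave 5382, 8341 and 6376, and 9, 4 and 8 for the kinases. Whether the replicate numbers pair the arrays is not settled by these values. Deviations of same-numbered ASYM and SYM arrays correlated at 0.256, 0.024 and 0.367. For ASYM replicates 1 and 3 the same-numbered SYM array was the most alike, whereas ASYM replicate 2 was most like SYM replicate 1 (0.127). Same-numbered pairs that include a p53SYM array correlated at −0.232 to 0.215. The mean over both Dtymk probe sets moved its log2 change from −0.46 to −0.33 in ASYM against SYM and from −0.42 to −0.27 in p53SYM against SYM. The cause was not tested. Signals near the dim end, such as Ak4, limit what these arrays can resolve.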

Other observations

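Lists of neighbouring steps in nucleotide metabolism, which share all arrays with the kinases above, gave these counts by limma at an adjusted p under 0.05. Over all probe sets 10.9% were higher and 11.0% lower in ASYM against SYM, 15.6% and 15.5% in ASYM against p53SYM, and 10.2% and 15.1% in p53SYM against SYM. Of 8 genes of deoxynucleotide supply, 0 rose and 3 fell in ASYM against SYM: Rrm1, the large subunit of ribonucleotide reductase (−0.55, adjusted p = 0.0032), Dut, which removes dUTP (−0.42, adjusted p = 0.0059), and Tyms, which makes dTMP, the substrate of Dtymk (−0.42, adjusted p = 0.050). In ASYM against p53SYM 3 of the 8 rose and 2 fell, where 15.6% and 15.5% of all probe sets did. Those that fell were Tyms (−0.61, adjusted p = 0.014) and Rrm1 (−0.49, adjusted p = 0.0087). Those that rose were Rrm2b, the p53-inducible subunit of ribonucleotide reductase (0.70, adjusted p = 0.026), Samhd1, which degrades deoxynucleotides (0.46, adjusted p = 0.021, with 0.31 and adjusted p = 0.137 on its second probe set), and Dctd, which turns dCMP into dUMP (0.42, adjusted p = 0.017). Against p53-null SYM, Rrm2b was not called in ASYM (0.36, adjusted p = 0.199) or in p53SYM (−0.34, adjusted p = 0.253). From SYM to p53SYM 0 of the 8 rose and 2 fell, Samhd1 (−0.64, adjusted p = 0.0042) and Dctd (−0.46, adjusted p = 0.011).

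Of 11 genes of purine monophosphate synthesis and salvage, 3 rose and 2 fell in ASYM against SYM. Adssl1, an adenylosuccinate synthase, which acts on IMP, rose by 1.38 (adjusted p = 8.2e-04) and measured 6.03, 6.47 and 5.54 in ASYM, 4.72, 4.70 and 4.49 in SYM, and 5.85 and 5.76 in p53SYM. Ampd3, an AMP deaminase, rose by 0.97 (adjusted p = 8.2e-04) and was also 0.70 higher in ASYM than in p53SYM (adjusted p = 0.0074). Ampd2 rose by 0.34 (adjusted p = 0.019). The 2 that fell were Adss, the other adenylosuccinate synthase (−0.32, adjusted p = 0.025), opposite in sign to Adssl1, and Impdh2 (−0.34, adjusted p = 0.011). In ASYM against p53SYM 2 of the 11 rose, Ampd3 and Aprt (0.32, adjusted p = 0.030), and Gmps fell (−0.30, adjusted p = 0.036). From SYM to p53SYM 3 rose, Adssl1 (1.17, adjusted p = 0.0030), Ampd2 (0.48, adjusted p = 0.0052) and Gmps (0.32, adjusted p = 0.031), and 0 fell. Of 6 measured nucleotidases, Nt5c3 fell in ASYM against SYM (−0.47, adjusted p = 0.0059), and 3 were higher in ASYM than in p53SYM, Nt5c (0.70, adjusted p = 0.0044), Nt5c3 (0.58, adjusted p = 0.0034) and, by the brighter of 2 probe sets, Nt5c3b (0.36, adjusted p = 0.026). From SYM to p53SYM 0 of the 6 rose and 2 fell, Nt5c3 (−1.06, adjusted p = 1.2e-04) and Nt5c (−0.52, adjusted p = 0.018).

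Of 11 genes of creatine kinase and AMP-activated kinase, which buffer or sense ATP, 1 rose and 1 fell in ASYM against SYM. Ckb, the brain-type creatine kinase, rose by 0.92 (adjusted p = 0.0011), with 9.24, 9.24 and 9.54 in ASYM, 8.32, 8.63 and 8.31 in SYM, and 9.16 and 9.52 in p53SYM. Prkaa2, a catalytic subunit of AMP-activated kinase that lay among the dimmest 25% of probe sets, fell (−0.31, adjusted p = 0.029). In ASYM against p53SYM 2 rose and 1 fell. Prkaa1, the other catalytic subunit, was 1.11 higher in ASYM than in p53SYM (adjusted p = 0.0068), and Prkag2, a regulatory subunit, was 0.73 higher (adjusted p = 0.0022), while Ckm, the muscle creatine kinase, fell (−0.44, adjusted p = 0.0081). From SYM to p53SYM 3 of the 11 rose, Ckb (0.92, adjusted p = 0.0017), Ckm (0.38, adjusted p = 0.018) and Prkag1 (0.36, adjusted p = 0.028), and 2 fell, Prkaa1 (−0.74, adjusted p = 0.043) and Prkag2 (−0.65, adjusted p = 0.0035). Of 7 measured genes of the hypoxia response, a list to which Ak4 relates as background, 0 rose and 1 fell in ASYM against SYM. That gene was Egln3, a HIF prolyl hydroxylase, which measured 4.12, 4.11 and 4.46 in ASYM, 7.26, 6.89 and 6.85 in SYM, and 4.22 and 3.87 in p53SYM (log2 change from SYM to ASYM −2.77, adjusted p = 2.2e-06). The other 6 genes, with log2 changes from −0.28 to 0.27, did not pass the test there. In p53SYM against SYM 3 of the 7 fell, Egln3 (−2.95, adjusted p = 3.1e-06), Slc2a1 (−0.64, adjusted p = 0.0040) and P4ha1 (−0.50, adjusted p = 0.012). In ASYM against p53SYM 2 of the 7 rose, P4ha1 (0.71, adjusted p = 0.0023) and Slc2a1 (0.36, adjusted p = 0.049), and 0 fell. The rank product test called fewer genes of these lists: in ASYM against SYM 2 purine genes higher, 1 gene of creatine kinase and AMP-activated kinase higher and 1 hypoxia gene lower, in p53SYM against SYM 1 hypoxia gene lower, and 0 elsewhere.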
